A study of Mus musculus with 384 samples.

Results

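The genes described here are 5 effector or regulatory cytokines of T cells and 4 receptor chains for IL-10 and the interferons. They were chosen by name, as the rows Ifng, Tnf, Lta, Csf1 and Il10 (ligands) and Il10ra, Il10rb, Ifngr1 and Ifnar1 (receptors), and make up 9 of the 23420 gene symbols in the deposited expression table. All 9 were listed, and 8 were detected in kept cells of all 4 plates, while Il10 was detected in 3 of them.

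Interferon-gamma, encoded by Ifng, is the signature cytokine of cytotoxic CD8 T cells and type 1 helper cells, and it signals through the receptor chains encoded by Ifngr1 and Ifngr2 to JAK kinases. TNF and lymphotoxin-alpha, encoded by the neighbouring genes Tnf and Lta, act on TNF receptors and switch on NF-kB, while Csf1 encodes the growth factor that macrophages need to survive. IL-10 restrains such responses: it binds its specific chain, encoded by Il10ra, together with the widely shared chain encoded by Il10rb, and acts through STAT3. Ifnar1 encodes a chain of the receptor for type I interferons. IL-27, whose receptor was the target of the knockout, is known as an inducer of IL-10 in T cells.

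The cells were T cells isolated from B16F10 melanoma, a transplantable skin tumour line, grown in C57BL/6 mice. Groups were CD8 cells labelled Il27ra KO, CD8 cells labelled wild type (WT), CD4 cells labelled Il27ra KO and CD4 cells labelled WT, with 1 plate each and therefore no replicate of a genotype within a cell type. A plate comprised 94 wells of single cells, a population well and a well without a cell, all prepared by Smart-seq2, a full-length method without molecular identifiers. Groups follow the sample titles, since the treatment label names CD8+ cells for every sample. The labels give neither age nor sex nor the part of Il27ra that was deleted, and genotype, animal and plate cannot be told apart.

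Values are FPKM (fragments scaled to transcript length and library size), and detection means 1 FPKM or above. The kept cells, those in which 1000 genes or more were detected, numbered 77 KO-labelled and 72 WT CD8 cells and 78 KO-labelled and 74 WT CD4 cells. Median detected genes per cell were 2243, 2530.5, 2091 and 2047 in the same order, highest in the CD8 WT plate. Lineage markers matched the titles: Cd4 was detected in 91.03% of KO-labelled and 89.2% of WT CD4 cells, and Cd8a in 81.8% of KO-labelled and 84.7% of WT CD8 cells. Cd4 was detected in 1 of 77 KO-labelled CD8 cells and in 0 of 72 WT CD8 cells, which allows a share of up to 4.17%. Il27ra itself was detected in 57.1% of KO-labelled and 51.4% of WT CD8 cells and in 47.4% of KO-labelled and 36.5% of WT CD4 cells. Reads outside the deleted part would count in these values, so they do not check the labels. Genotype differences below are differences between plates as labelled, intervals are exact (Clopper-Pearson) 95% intervals that cover counting error only, and no p-value was computed for genotype. For a count of 0 the limit given is 3 counts over the number of cells.

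The 5 cytokine transcripts and Il10ra share a sequence feature that the receptor chains Il10rb, Ifngr1 and Ifnar1 lack. Their 3′ untranslated regions hold the AU-rich heptamer TATTTAT, the core of the elements through which proteins such as tristetraprolin (Zfp36) speed the decay of cytokine mRNA. Short sites are shown because they let the transcripts be compared by eye; the capitals mark every copy of the heptamer in a window of 30 bases, written 5′ to 3′ on the gene's strand, from GENCODE M21 transcripts (GRCm38).
Tnf (chr17:35199677-35199706, minus strand): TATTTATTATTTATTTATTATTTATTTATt
Ifng (chr10:118445332-118445361, plus strand): ccTATTTATtaatatttaaaacTATTTATa
Il10 (chr1:131024384-131024413, plus strand): ctctctccgaaaTATTTATtacctctgata
Lta (chr17:35203394-35203423, minus strand): aaagttaagtTATTTATTTATagagaatag
Il10ra (chr9:45254114-45254143, minus strand): cttTATTTATTTATttgctcactTATTTAT
Over the whole 3′ region the heptamer, searched on the transcript strand with overlapping copies counted, occurred 8 times in Tnf, 4 times each in Ifng and Il10, 3 times each in Lta and Il10ra and 1 time in Csf1. It was not found in the 3′ regions of Il10rb, Ifngr1 or Ifnar1. Of 20968 mouse genes with a 3′ region, 27.5% held at least 1 copy and 1.74% held 4 or more. A match is a description of letters and not a measured site of decay.

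Tnf and Lta lie side by side on chromosome 17, both on the minus strand, with 1157 bases between the end of Lta and the start of Tnf. Because both were higher in the KO-labelled population libraries, the 250 bases before each start are shown, from RefSeq (GRCm38.p6), with capitals on every copy of GGAAA or its reverse complement TTTCC, the core that NFAT factors read.
Tnf promoter (chr17:35202008-35202257, minus strand): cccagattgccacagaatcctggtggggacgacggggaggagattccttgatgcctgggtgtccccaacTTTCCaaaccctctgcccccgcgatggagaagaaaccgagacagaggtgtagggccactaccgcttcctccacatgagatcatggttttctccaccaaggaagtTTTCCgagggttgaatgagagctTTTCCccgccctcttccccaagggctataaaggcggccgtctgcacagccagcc
Lta promoter (chr17:35205352-35205601, minus strand): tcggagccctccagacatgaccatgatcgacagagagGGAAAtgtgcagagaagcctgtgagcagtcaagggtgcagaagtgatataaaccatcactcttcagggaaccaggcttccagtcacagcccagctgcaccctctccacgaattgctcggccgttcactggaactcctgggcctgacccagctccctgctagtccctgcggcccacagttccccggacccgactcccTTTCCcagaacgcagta
The core occurred 3 times before Tnf and 2 times before Lta. It occurred 1 time before Ifng and 3 times each before Csf1 and Ifnar1, and was not found before Ifngr1. Of 32851 mouse promoter windows of this length, 55.6% held it, so its presence is common. The TATA letters TATAAA, found in 7.59% of the windows on the gene's strand, occurred 1 time each before Tnf, Lta and Ifng. Of the other motifs searched, on both strands, TTCNNNGAA (the STAT element; 7.02% of windows) occurred 2 times before Lta and 1 time before Ifng, and TGANTCA (AP-1; 6.75%) was not found in the 6 windows read.

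Cytokine transcripts were present in a minority of cells, often at high FPKM, and the receptor chains ranged from a minority to nearly all. At least 1 of the 5 cytokines was detected in 38.96% of KO-labelled CD8 cells (interval 28.1 to 50.8) and 45.8% of WT CD8 cells (34.02 to 58). The shares were 43.6% (32.4 to 55.3) in KO-labelled and 40.5% (29.3 to 52.6) in WT CD4 cells. All 4 intervals overlapped, so the share of cells with any of these cytokines did not separate the plates at this number of cells. The cytokine that was found differed by lineage: Ifng led in CD8 cells, and Tnf and Il10 in CD4 cells.

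**Figure D1:**
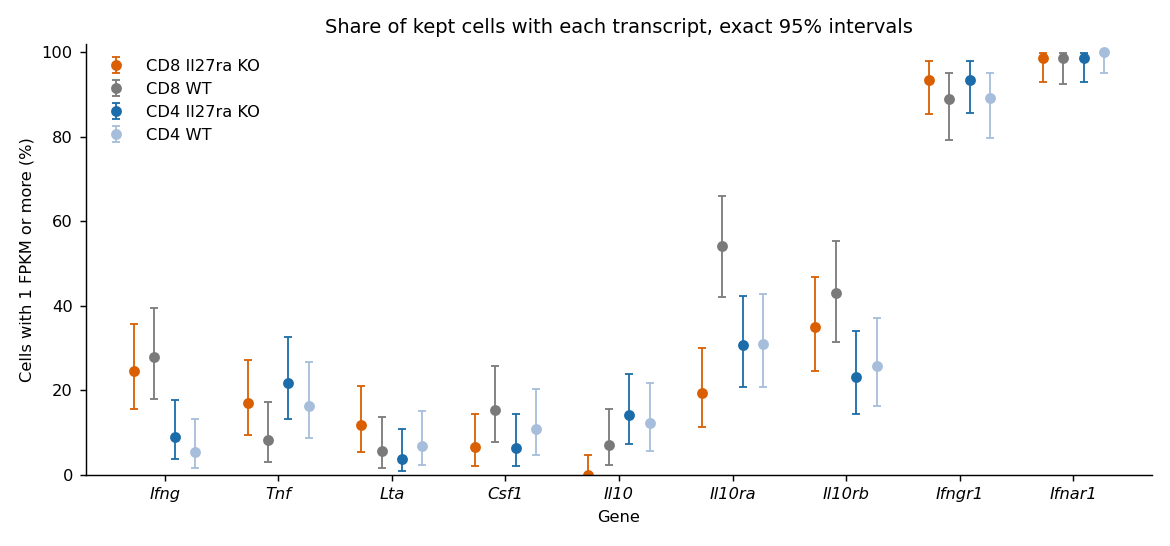
Share of kept cells with 1 FPKM or more of each gene (y axis, percent) in the 4 plates; points are plate shares and bars exact 95% intervals. Il10ra in CD8 cells (19.5% KO-labelled, 54.2% WT) is the pair of plates of 1 lineage whose intervals lie apart, and Ifng is higher in both CD8 plates than in both CD4 plates. The share of all genes with intervals apart was not computed.

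Ifng (chr10:118441046-118445892, plus strand) was detected in 19 of 77 KO-labelled CD8 cells (24.7%, interval 15.6 to 35.8) and 20 of 72 WT CD8 cells (27.8%, 17.9 to 39.6). In the cells that had it, the lowest, median and highest values were 5.91, 286.5 and 3384.5 FPKM in KO-labelled and 3.85, 157.4 and 677 FPKM in WT CD8 cells. The shares were close, while the highest KO-labelled cells lay above all WT cells: 1 cell held 34.5% of the plate's Ifng sum. Mean log2(FPKM + 1) over all kept cells was 1.98 in the KO-labelled and 1.86 in the WT CD8 plate, a difference of 0.12. In CD4 cells Ifng was detected in 7 of 78 KO-labelled cells (8.97%, 3.68 to 17.6) and 4 of 74 WT cells (5.41%, 1.49 to 13.3). Those few cells carried 253.06 to 2375 FPKM in the KO-labelled and 616 to 1101 FPKM in the WT plate, with medians of 544 and 718 FPKM. The share of cells with Ifng was lower in CD4 than in CD8 plates, while the median among cells that had it was not. Some cells held Cd4 in CD8 plates, Cd8a or Cd8b1 in CD4 plates, or at least 2 melanoma, myeloid or B cell markers. Without them Ifng was in 30.6% of 36 KO-labelled and 35.7% of 28 WT CD8 cells. It was then in 5 of 38 KO-labelled and 0 of 27 WT CD4 cells. All 4 WT CD4 cells with Ifng were among those left out. The rule counts Tyr, a pigment gene present in nearly every cell.

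Tnf (chr17:35199381-35202007, minus strand) was detected in 13 KO-labelled (16.9%, 9.31 to 27.1) and 6 WT (8.33%, 3.12 to 17.3) CD8 cells. It was detected in 17 KO-labelled (21.8%, 13.2 to 32.6) and 12 WT (16.2%, 8.67 to 26.6) CD4 cells. The intervals overlapped in both lineages, although the share was higher in the KO-labelled plate of each. Cells with Tnf held a median of 478 FPKM (1.09 to 2185) in KO-labelled and 238.7 FPKM (48.1 to 1789) in WT CD8 cells. They held 554 FPKM (11.4 to 13337) in KO-labelled and 280.6 FPKM (26.2 to 1128) in WT CD4 cells. The 2 KO-labelled CD4 cells at the top, at 13337 and 5715 FPKM, stood above every other kept cell, and the first held 48.96% of its plate's sum. Mean log2 differences, KO-labelled minus WT, were 0.64 in CD8 and 0.64 in CD4 cells.

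Lta (chr17:35203165-35205351, minus strand) was rarer. It was detected in 9 KO-labelled (11.7%, 5.49 to 21.0) and 4 WT (5.56%, 1.53 to 13.6) CD8 cells, and in 3 KO-labelled (3.85%, 0.80 to 10.8) and 5 WT (6.76%, 2.23 to 15.1) CD4 cells. Its highest values were 974 and 484 FPKM in KO-labelled and WT CD8 cells and 555 and 623 FPKM in KO-labelled and WT CD4 cells. The 4 intervals overlapped, and the difference of means was 0.54 in CD8 and -0.20 in CD4 cells.

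Csf1 (chr3:107741048-107760469, minus strand) was found at lower levels than the other cytokines. It was detected in 5 KO-labelled (6.49%, 2.14 to 14.5) and 11 WT (15.3%, 7.88 to 25.7) CD8 cells, with medians of 9.95 and 24.2 FPKM among them. In CD4 cells it was detected in 5 KO-labelled (6.41%, 2.11 to 14.3) and 8 WT (10.8%, 4.78 to 20.2) cells, with medians of 51 and 24.4 FPKM. The shares were lower in both KO-labelled plates, with overlapping intervals. Depth moved with it: the 11 WT CD8 cells with Csf1 had a median of 4162 detected genes, against 2445 in those without. The mean difference in CD8 cells was -0.49, and -0.09 in cells matched on detected genes, where Csf1 no longer reached the 10% of cells required elsewhere of a measured gene.

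Il10 (chr1:131019845-131024974, plus strand) was a transcript of few cells at high levels. In CD4 cells it was detected in 11 of 78 KO-labelled cells (14.1%, 7.26 to 23.8) and 9 of 74 WT cells (12.2%, 5.71 to 21.8). Those cells held 271.5, 901 and 9009 FPKM (lowest, median, highest) in the KO-labelled and 286.6, 1285 and 4357 FPKM in the WT plate. Shares and levels overlapped widely, and the means differed by 0.20 log2. No Il10 was detected in KO-labelled CD8 cells (0 of 77, which allows a share of up to 3.90%), and it was detected in 5 of 72 WT CD8 cells (6.94%, 2.29 to 15.5). The WT values were 363.05, 283.9, 225.9, 5.57 and 2.74 FPKM, so 3 cells held it above 100 FPKM. Whether these shares differ was not tested, with 1 plate on each side. The KO-labelled CD8 population library did hold Il10, at 39.4 FPKM, against 82.5 FPKM in the WT one.

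**Figure D2:**
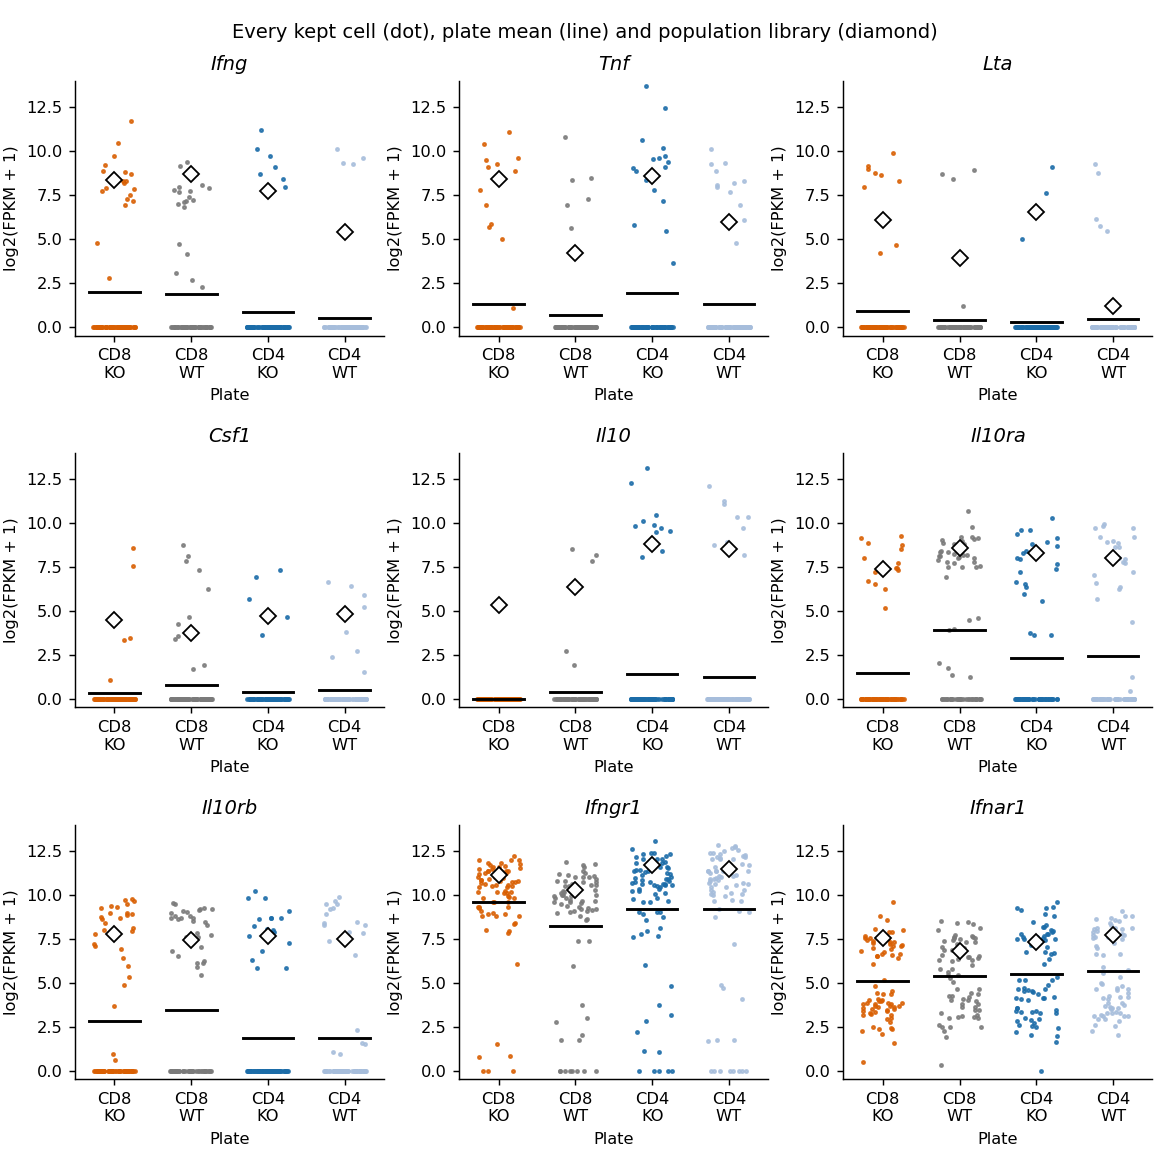
log2(FPKM + 1) (y axis) of the 9 genes in every kept cell of the 4 plates (x axis); dots are cells, lines plate means and diamonds the population library of the plate. Cells with a cytokine stand well above the many at 0, Ifngr1 is high in most cells, and Ifnar1 was at 1 FPKM or more in nearly all cells, with a highest value of 774 FPKM.

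Population libraries, in which fewer cells with a transcript and less RNA per cell cannot be told apart, differed by more than the cell means for Tnf and Lta, and by less for Il10ra and Ifngr1 in CD8. Tnf was 337.15 FPKM in the KO-labelled and 17.15 FPKM in the WT CD8 library, and 389 FPKM in the KO-labelled and 62.8 FPKM in the WT CD4 library. Lta was 66.9 FPKM in the KO-labelled and 14.2 FPKM in the WT CD8 library, and 91.9 FPKM in the KO-labelled and 1.29 FPKM in the WT CD4 library. Both neighbouring genes were thus higher under the KO label in each lineage, by 4.22 and 2.16 log2(FPKM + 1) in CD8 and by 2.61 and 5.34 in CD4 (Tnf, then Lta). Ifng was 324.02 FPKM in the KO-labelled and 412.5 FPKM in the WT CD8 library, and 215.6 FPKM in the KO-labelled and 41.35 FPKM in the WT CD4 library. Of all 8117 genes measured in CD8 cells, 11.1% were higher by 1 log2 or more in the KO-labelled population library and 7.96% lower. Of 7063 genes in CD4 cells, 12.9% were higher and 13.4% lower. Among the members measured, 2 of 8 were higher in CD8 (Tnf and Lta) and 1 lower (Il10ra), and 1 of 7 was higher in CD4 (Tnf; Lta did not pass the filter there). RNA of other cells moved with the CD4 libraries: Cd8b1 was 122.19 FPKM in the KO-labelled and 5.34 FPKM in the WT one, and the 11 myeloid markers summed to 707 and 240.4 FPKM. In the CD8 libraries the myeloid markers summed to 698 FPKM (KO-labelled) and 638 FPKM (WT), and the 7 melanoma markers to 8.86 and 59.8 FPKM. The 3 NK cell markers summed to 48.8 FPKM in the KO-labelled and 5.84 FPKM in the WT CD8 library, and to 90.4 FPKM in the KO-labelled and 15.63 FPKM in the WT CD4 library. The 5 B cell markers summed to 61.8 FPKM in the KO-labelled and 11.19 FPKM in the WT CD8 library, and to 78.2 FPKM in the KO-labelled and 31.5 FPKM in the WT CD4 library. The part of such RNA in the Tnf and Lta differences was not tested.

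Among the receptors, Il10ra (chr9:45253837-45269149, minus strand) separated the CD8 plates. It was detected in 15 of 77 KO-labelled cells (19.5%, 11.3 to 30.1) and 39 of 72 WT cells (54.2%, 42 to 65.98), and these intervals did not overlap. How many of all genes had intervals apart between these plates was not computed. Cells with Il10ra held 34.8, 176.4 and 621 FPKM (lowest, median, highest) in the KO-labelled and 1.36, 270.4 and 1671 FPKM in the WT plate. Fewer cells had the transcript, and the levels in those that did overlapped. Mean log2 was 1.49 in KO-labelled and 3.93 in WT CD8 cells, a difference of -2.44, and the population libraries were 169.4 and 384.1 FPKM, a difference of -1.18. In CD4 cells the intervals overlapped almost wholly, at 30.8% (20.8 to 42.2) in KO-labelled and 31.1% (20.8 to 42.9) in WT cells, and the means differed by -0.10. Whether the difference in CD8 differs from that in CD4 was not tested.

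Depth and RNA of other cells also differed between the CD8 plates. WT CD8 cells with Il10ra had a median of 3125 detected genes, against 2071 in those without. When 55 cells of each CD8 plate were matched on detected genes, the Il10ra difference was -1.83. Of 7 melanoma markers, 6 were detected in some KO-labelled CD8 cell (Sox10 at 0) and 7 in some WT cell, with summed levels up to 1034 and 14139 FPKM and medians of 8.10 and 10.3 FPKM. Of 11 myeloid markers, 7 were detected in KO-labelled (Csf1r, Cd14, Emr1 and C1qa at 0) and 10 in WT CD8 cells (C1qa at 0), with summed levels up to 3410 and 11202 FPKM and medians of 0 in both. Without the cells that had Cd4 or at least 2 melanoma, myeloid or B cell markers, Il10ra was detected in 16.7% (6.37 to 32.8) of 36 KO-labelled and 67.9% (47.7 to 84.1) of 28 WT CD8 cells. The difference of means was then -3.50, wider than with them, and -2.89 when Tyr, a pigment gene present in nearly every cell, was not counted as a melanoma marker (66 KO-labelled and 51 WT cells).

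Il10rb (chr16:91406164-91425834, plus strand), which also serves receptors of other IL-10 family cytokines and of type III interferons, was detected in 35.1% (24.5 to 46.8) of KO-labelled and 43.1% (31.4 to 55.3) of WT CD8 cells. In CD4 cells it was detected in 23.1% (14.3 to 34) of KO-labelled and 25.7% (16.2 to 37.2) of WT cells. Both CD4 plates lay below both CD8 plates, and within each lineage the KO-labelled plate lay below the WT one, but neighbours in this order had overlapping intervals. Mean log2 differed by -0.63 in CD8 and 0.02 in CD4 cells. The population libraries ran against the shares in both lineages, and against the mean in CD8 alone. They were at 215.1 FPKM in the KO-labelled and 169.6 FPKM in the WT CD8 library. In CD4 they were at 204.9 FPKM in the KO-labelled and 178.2 FPKM in the WT library.

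Ifngr1 (chr10:19591949-19610229, plus strand), the ligand-binding chain for interferon-gamma, was the most abundant of the 9 transcripts per length. It was detected in 72 of 77 KO-labelled (93.5%) and 64 of 72 WT (88.9%) CD8 cells, with medians over all cells of 1458 and 823 FPKM. In CD4 cells it was detected in 73 of 78 KO-labelled (93.6%) and 66 of 74 WT (89.2%) cells, with medians of 1507 and 1715 FPKM. The CD8 WT plate was the lowest of the 4, and all distributions overlapped. Mean log2 was 9.57 in KO-labelled and 8.25 in WT CD8 cells, a difference of 1.32, against -0.01 in CD4 cells. Cells without Ifngr1 weighed on that mean: the 8 WT CD8 cells at 0 or under 1 FPKM had a median of 1153.5 detected genes, against 2659.5 in the others. The KO-labelled CD8 plate ran the other way, with 3053 detected genes in cells without Ifngr1 and 2243 in the others. The difference was 0.52 in cells matched on detected genes, 0.60 log2 between arithmetic means and 0.85 between population libraries (2243 FPKM KO-labelled, 1241 FPKM WT), below 1 each time. Ifngr1 was also the member with a value in a no-cell well, 989 FPKM on the CD4 WT plate, whose library held 26 detected genes; the other 3 no-cell wells were at 0 for all 9 genes.

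Ifnar1 (chr16:91485238-91507441, plus strand) was detected in all but 3 of the kept cells, but mostly at low values. The median was 19.2 FPKM in KO-labelled and 50.5 FPKM in WT CD8 cells, and 34.2 FPKM in KO-labelled and 34.8 FPKM in WT CD4 cells. Tyr, the pigment enzyme tyrosinase that T cells are not known to express, was likewise at 1 FPKM or more in 97.4% to 100% of cells, so detection at this threshold does not separate expression from background for such genes (Tyr was singled out after its values were seen). Tyr reached 100 FPKM in 0 KO-labelled and 2 WT CD8 cells and in 0 cells of either CD4 plate. Ifnar1 reached it in 33.8% (23.4 to 45.5) of KO-labelled and 33.3% (22.7 to 45.4) of WT CD8 cells. In CD4 cells it did so in 43.6% (32.4 to 55.3) of KO-labelled and 40.5% (29.3 to 52.6) of WT cells. The 4 shares overlapped, and the means differed by -0.28 in CD8 and -0.13 in CD4 cells. Few cells lay between 30 and 100 FPKM in 3 plates (7.69% to 10.8%), which left a lower and an upper group of cells, while 23.6% of WT CD8 cells lay there.

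**Figure D3:**
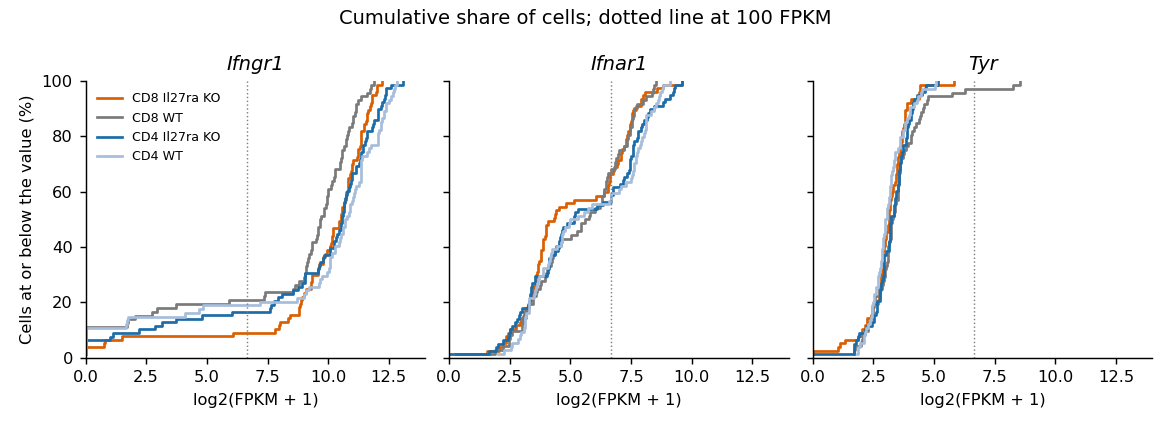
Cumulative share of kept cells (y axis, percent) at or below each log2(FPKM + 1) value (x axis) for Ifngr1, Ifnar1 and, beside them, the melanocyte gene Tyr; 1 line per plate, dotted line at 100 FPKM. Ifngr1 lies mostly to the right of the line, Tyr to the left except in 2 WT CD8 cells, and Ifnar1 spans it with 33.3% to 43.6% of cells at or above 100 FPKM.

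The members were counted beside all genes. In CD8 cells 8 of the 9 passed the filter (detected in 10% or more of the cells in 1 plate or both; Il10 did not), 1 was higher by 1 log2 or more (Ifngr1) and 1 lower (Il10ra). Of all genes 2.07% were higher and 9.19% lower (11.3% in either direction), with a median of -0.22, and the members' median was -0.08. In CD4 cells 7 passed (not Ifng and Lta) and 0 moved that far in either direction, while 2.53% of all genes were higher and 2.51% lower (5.04% in either direction). The members' median there was -0.01, beside -0.04 for all genes. Tnf and Lta in CD8 passed the filter through the KO-labelled plate alone, and Csf1 in both lineages through the WT plate alone, so their directions are tied to the filter and the counts support nothing further.

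**Figure D4:**
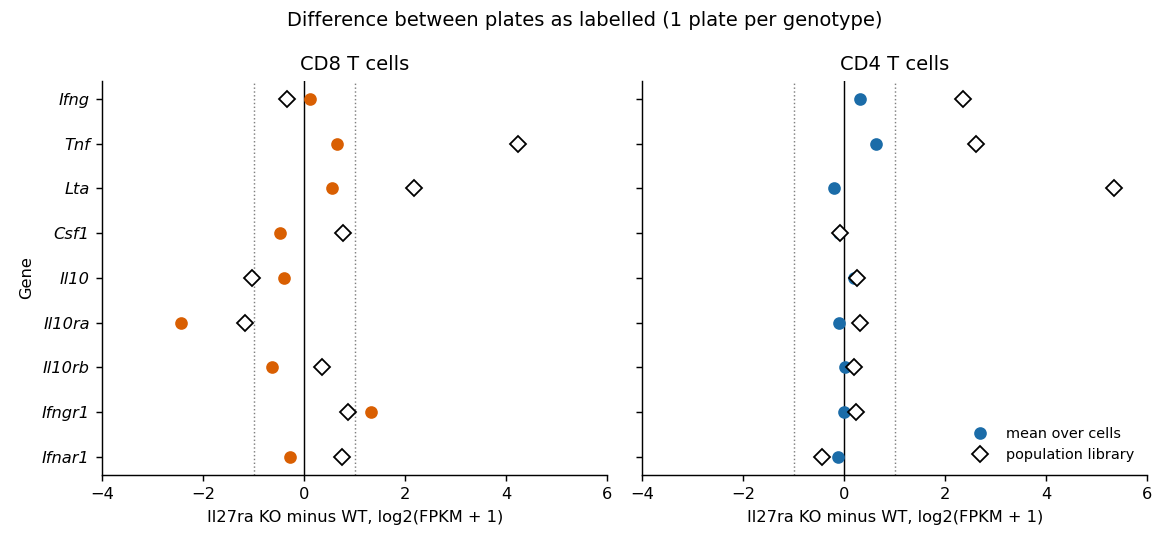
KO-labelled minus WT difference in log2(FPKM + 1) (x axis) of each gene in CD8 and CD4 cells; filled circles are differences of means over kept cells, open diamonds differences of population libraries, dotted lines 1 log2 either way. In cells, Il10ra at -2.44 and Ifngr1 at 1.32 pass the lines in CD8 and no gene does in CD4, while Tnf and Lta stand to the right in both population comparisons.

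Genes that act with the members were read from lists of named genes. The partner chains and other receptors of the members did not reach 1 log2 in the cells of either lineage (0 of 4 measured in each). Tnfrsf1b, the TNF receptor of activated and regulatory T cells, was the one most often found, in 57.1% of KO-labelled and 63.9% of WT CD8 cells and in 64.1% of KO-labelled and 51.4% of WT CD4 cells. Ifngr2, the signalling chain for interferon-gamma, was found in 14.3% of KO-labelled and 15.3% of WT CD8 cells and in 26.9% of KO-labelled and 22.97% of WT CD4 cells. It was far rarer than Ifngr1. Csf1r and Ltbr, the receptors for Csf1 and for lymphotoxin complexes, were each detected in 0 to 4 cells of a plate.

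Socs1, a feedback inhibitor of interferon signalling, was higher in both KO-labelled plates. Of 11 genes of interferon and IL-10 signal transduction, 2 were higher by 1 log2 or more in KO-labelled CD8 cells, Socs1 (2.30) and Socs3 (1.99), and 0 were lower, with a median of 0.41. In CD4 cells 1 was higher, Socs1 (1.59), and 0 were lower, with a median of 0.36; Jak1 stood at -0.97 and Stat3, the IL-10 signal transducer, at -0.86. Among interferon-gamma target genes in CD4 cells, 7 of 17 measured were higher and 0 lower, with a median of 0.69. Among them were Socs1, Cd274 (PD-L1; 1.57), Irf1 (a transcription factor; 1.46) and Gbp3 (a guanylate-binding protein; 1.36). In CD8 cells 1 of 15 was higher (Socs1) and 1 lower (Tap1, a peptide transporter, -1.32), with a median of 0.11. Of TNF and NF-kB target genes, 3 of 9 were higher in KO-labelled CD8 cells, Nfkbiz (3.0), Tnfaip3 (2.04) and Nfkbia (1.63), and 1 was lower, Traf1 (-1.34). In CD4 cells 2 of 10 were higher, Nfkbiz (2.60) and Nfkbia (1.21), and 0 lower. Nfkbia and Tnfaip3 encode inhibitors of NF-kB, and Nfkbiz a nuclear modulator of it. The signal transduction genes had medians of 0.45 in the CD8 and -0.16 in the CD4 population libraries. Socs1 stood at 1.17 in the CD8 and 0.28 in the CD4 libraries, and Socs3 at 1.30 and -0.29. The interferon-gamma targets had medians of 0.01 in the CD8 and 0.42 in the CD4 population libraries. The NF-kB targets had medians of 0.20 in CD8 and 0.74 in CD4 cells, and of 1.09 in the CD8 and 0.04 in the CD4 population libraries, so cells and libraries differed in both lineages.

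Factors that act on the cytokine genes moved in both directions. Of 9 measured inducers of Il10, 1 was higher by 1 log2 or more in KO-labelled CD8 cells, Gata3 (1.12), and 2 were lower, Prdm1 (-1.27) and Batf (-1.19). In CD4 cells 3 of 9 were higher, Irf4 (1.62), Nfil3 (1.16) and Batf (1.07), and 0 lower, while Il10 itself differed by 0.20. Prdm1 in CD8 passed the filter through the WT plate alone (detected in 6.49% of KO-labelled and 30.6% of WT cells). Nfil3 in CD4 passed it through the KO-labelled plate alone (21.8% of KO-labelled and 9.46% of WT cells). The directions of Prdm1 in CD8 and Nfil3 in CD4 are therefore tied to the filter. In the population libraries 0 inducers were higher and 2 lower in CD8, and 2 were higher and 0 lower in CD4. Batf stood at -1.13 in the CD8 and -0.20 in the CD4 libraries, and Prdm1 at -0.31 in CD8. Of transcription factors that act on Ifng, 1 of 8 was higher in CD8 cells, Stat4 (1.15), and 4 were lower, among them Irf8 (-1.24), Eomes (-1.21) and Runx3 (-1.18), while Ifng differed by 0.12. In CD4 cells 2 of 7 were lower, Nfatc1 (-1.57) and Tbx21, the factor of type 1 helper cells (-1.0), and 0 higher. In the population libraries 0 of these factors were higher and 1 was lower in CD8, Eomes (-1.82). Irf8 (0.06) and Runx3 (0.40) ran against the cells there, and Stat4 stood at 0.85. In the CD4 libraries 1 was higher and 1 lower, with Nfatc1 at 0.97 and Tbx21 at -0.20. Of cytokine mRNA decay factors, which bind AU-rich sites such as the heptamers printed here, 3 of 9 were higher in KO-labelled CD8 cells, Zfp36l1 (2.89), Zfp36 (1.96) and Zfp36l2 (1.30), and 1 of 9 in CD4 cells, Zfp36 (1.71). None of the 9 was lower in the cells of either lineage. In the population libraries 2 were higher and 0 lower in CD8 (median 0.38), and 0 were higher and 2 lower in CD4, Rc3h1 (-1.66) and Hnrnpd (-1.26), with a median of -0.43. Among all genes the shares past the same fold are those given above, and nothing is claimed for these lists beyond their counts.

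Between lineages, Il10 was higher and Ifng lower in CD4 than in CD8 cells. The 4 plates' mean values were fitted with limma, the source (KO4 or WT4) being a term, with Benjamini-Hochberg adjustment over 8427 genes. Ifng averaged 0.84 and 0.52 log2 in the CD4 plates and 1.98 and 1.86 in the CD8 plates (KO-labelled, then WT). The difference was -1.24 (SE 0.35, adjusted p = 0.0118 by limma), with -1.14 within the KO-labelled and -1.34 within the WT source. Il10 averaged 1.42 and 1.23 in the CD4 plates and 0 and 0.40 in the CD8 plates, a difference of 1.12 (SE 0.27, adjusted p = 0.00217 by limma), with 1.42 and 0.82 within the sources. Both genes reached the filter of 10% of cells only in the lineage where they were higher (Ifng in CD8, Il10 in CD4), so their direction is tied to the filter and the calls are no independent support for it. They were the 2 of 9 members called, where 1.12% of all genes were called higher and 6.32% lower in CD4 (7.44% in either direction; the median difference of all genes was -0.27). Il10rb, lower by the point estimate in both CD4 plates, missed the threshold (-1.29, SE 0.45, adjusted p = 0.0526 by limma). Tnf differed by 0.63 in each source and was not called (adjusted p = 0.268 by limma). Il10ra ran in opposite directions, 0.82 within the KO-labelled and -1.52 within the WT source, and was not called either (adjusted p = 0.712 by limma).

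Both calls rest on a spread pooled over all genes, with 1 residual degree of freedom, and a gene's own spread carried no weight. They were lost under several settings. Without the genotype term the adjusted p from limma was 0.0907 for Ifng and 0.0508 for Il10. Without each plate in turn it ranged from 0.0291 to 0.525 for Ifng and from 0.0303 to 0.175 for Il10. Both CD4 plate means lay below both CD8 plate means for Ifng and above them for Il10. None of these fits could therefore change a direction. In the population libraries the differences were -1.94 for Ifng and 2.80 for Il10.

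Regulators of the same cytokines split between lineages as well. Of the Il10 inducers, 2 of 9 were called higher in CD4 cells, Maf (2.17 log2, adjusted p = 2.08e-06) and Gata3 (1.88, adjusted p = 0.0209), and 0 lower. Of the factors acting on Ifng, 3 of 8 were called lower in CD4 cells, Runx3 (-2.20, adjusted p = 0.000405), Stat4 (-1.60, adjusted p = 0.0394) and Eomes (-1.18, adjusted p = 0.000245), and 0 higher. Of the interferon-gamma targets 2 of 17 were called higher in CD4, Cd274 (1.56) and Iigp1 (1.27), and the decay factor Zfp36 (2.36) and the NF-kB inhibitor Nfkbia (2.11) were called higher in their lists of 9 and 10. Iigp1 passed the filter of 10% of cells only through CD4 plates and Eomes only through CD8 plates, so their directions, too, are tied to the filter. All are limma values from the same fit, with the share of all genes called given above.

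Within CD4 cells several members differed with Foxp3, the factor that defines regulatory T cells. Foxp3 was detected in 37 KO-labelled cells (41 without) and 27 WT cells (47 without). Il10 was detected in 21.6% (9.83 to 38.2) of Foxp3-positive and 7.32% (1.54 to 19.9) of Foxp3-negative KO-labelled cells, and in 25.9% (11.1 to 46.3) of Foxp3-positive and 4.26% (0.52 to 14.5) of Foxp3-negative WT cells. Il10ra was detected in 45.95% (29.5 to 63.1) of Foxp3-positive and 17.1% (7.15 to 32.1) of Foxp3-negative KO-labelled cells, and in 55.6% (35.3 to 74.5) of Foxp3-positive and 17.02% (7.65 to 30.8) of Foxp3-negative WT cells. Both genes leaned to Foxp3-positive cells in each plate, and for Il10ra in WT cells the intervals lay apart. How many of all genes had intervals apart by Foxp3 was not computed. Ifng leaned the other way, with 2.70% of Foxp3-positive and 14.6% of Foxp3-negative KO-labelled cells, and 0 of 27 Foxp3-positive (which allows up to 11.1%) and 8.51% of Foxp3-negative WT cells. Csf1 was detected in 8.11% (1.70 to 21.9) of Foxp3-positive and 4.88% (0.60 to 16.5) of Foxp3-negative KO-labelled cells. In WT cells it was in 25.9% (11.1 to 46.3) of Foxp3-positive and 2.13% (0.05 to 11.3) of Foxp3-negative cells. Ifnar1 reached 100 FPKM in 59.5% of Foxp3-positive and 29.3% of Foxp3-negative KO-labelled cells, and in 44.4% of Foxp3-positive and 38.3% of Foxp3-negative WT cells. Median detected genes were 2076 in Foxp3-positive and 2095 in Foxp3-negative KO-labelled cells, and 2316 and 1966 in the WT ones. Foxp3-positive cells made up 47.4% of the KO-labelled and 36.5% of the WT plate, and within them alone the mean of Il10ra differed by -1.19 (KO-labelled minus WT).

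Some pairs of cytokines were found together in more cells than independent detection would give, and others in fewer. Over the 4 plates, Ifng and Tnf were found together in 12 cells, where independent detection at each plate's shares would give 7.05. Ifng and Lta were together in 8 cells (3.87 if independent), Ifng and Csf1 in 11 (5.17) and Tnf and Lta in 6 (3.32). Csf1 and Il10 were together in 6 cells (2.44), of which 2 were KO-labelled and 4 WT CD4 cells. In WT CD4 cells Csf1, like Il10, leaned to Foxp3-positive cells, and the part of this in the pair was not tested. The counts are small, and these pairs exceeded independence also when cells were split within a plate into a lower and an upper group by detected genes (7.16, 3.67, 5.85, 3.16 and 3.55). Below independence were Ifng with Il10, in 1 cell (2.86), Tnf with Il10, in 2 (4.27), Lta with Il10, in 1 (1.31), and Tnf with Csf1, in 3 (4.15). Of the 10 pairs of ligands, 6 were above and 4 below independence, and no share over all gene pairs was computed beside them. Cells with at least 2 of the 5 cytokines made up 16.9% of KO-labelled and 15.3% of WT CD8 cells, and 8.97% of KO-labelled and 10.8% of WT CD4 cells.

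Cells with Il10 had its receptor chains more often than cells without it, though not all of them did. Of the 25 cells with Il10, 68% had Il10ra and 60% had Il10rb, against 30.4% and 28.99% of the cells without. These were 17 and 15 cells, where independence within plates would give 8.89 and 7.0, and 11.03 and 7.57 after the split by detected genes. All 5 Il10-positive WT CD8 cells had Il10ra, as did 5 of 11 KO-labelled and 7 of 9 WT CD4 cells with Il10. Among these cells the lowest Il10ra values were 1.36 FPKM in WT CD8 and 1.32 FPKM in WT CD4 cells, near the threshold of detection. Il10 values in the WT CD8 cells included 5.57 and 2.74 FPKM. The sums over the 25 cells pool lineages, and 20 of the 25 Il10-positive cells were CD4 cells. Of the listed inducers, Maf was together with Il10 in 17 cells (8.97 if independent within plates, 10.53 after the split) and Prdm1 (Blimp-1) in 10 (6.09, and 6.53 after the split). Batf (14 cells, 9.07 if independent), Irf4 (12, 7.19) and Nfil3 (8, 3.67) exceeded independence too, and Ahr did not. An excess was thus not particular to the receptor chains, and it was not computed over all genes. Foxp3 was together with Il10 in 15 cells (8.50, and 9.58 after the split), in 72.7% of Il10-positive and 43.3% of Il10-negative KO-labelled CD4 cells and in 77.8% of Il10-positive and 30.8% of Il10-negative WT CD4 cells. Within Foxp3-positive CD4 cells, Maf was in 87.5% of Il10-positive and 51.7% of Il10-negative KO-labelled cells and in 57.1% of Il10-positive and 55% of Il10-negative WT cells. Ahr was in 0 of the 25 and in 2.90% of the others. Within Foxp3-positive CD4 cells of both plates, Il10rb was in 53.3% (26.6 to 78.7) of 15 Il10-positive and 16.3% (7.32 to 29.7) of 49 Il10-negative cells, and Il10ra in 66.7% (38.4 to 88.2) and 44.9% (30.7 to 59.8). Detected genes moved with this too, with medians of 2994 in those Il10-positive and 2111 in those Il10-negative cells. The chains Il10ra and Il10rb were together in 43 cells (33.5 if independent, 36.9 after the split).

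**Figure D5:**
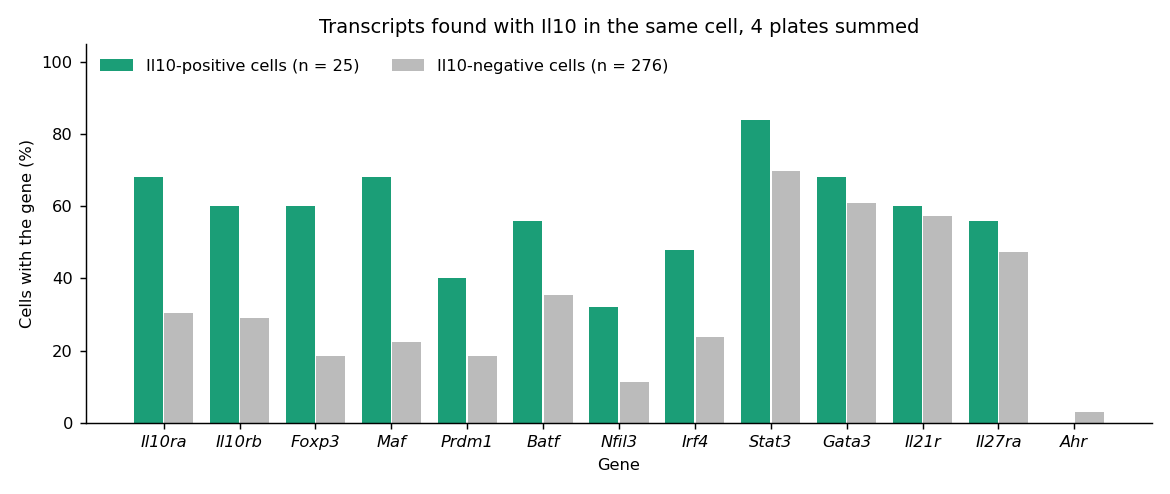
Share of cells (y axis, percent) with each gene among the 25 cells with Il10 and the cells without it, all 4 plates summed. Il10ra, Maf and Foxp3 show wide gaps (68% and 30.4%, 68% and 22.5%, 60% and 18.5%) in this sum, in which 20 of the 25 Il10-positive cells are CD4 cells, while Il21r (60% and 57.2%) is nearly level.

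Genes whose pattern over cells was most like a member's were read from the mean over plates of the within-plate Spearman correlation (all kept cells, 6938 genes; values describe cells that share libraries and depth). Ifng was most like Slc24a5 (0.31), Nkg7 (0.27) and Dpysl2 (0.26). The part of RNA from other cell types in these values was not tested. Tnf was most like Egr1, an early-response gene (0.30), Slamf7 (0.27) and Nfkbid (0.25). Il10ra was most like S100a4 (0.39), Havcr2, which encodes TIM-3 (0.39), and Lgals1 (0.38), and it followed the number of detected genes nearly as closely (0.37). Ifngr1 was most like Vps37b (0.42), Gimap3 (0.41) and Tnfaip3 (0.39), with no relation to detected genes. For Il10rb (Ugcg, Bptf and Phf11b) the values were 0.25 to 0.26, and for Ifnar1 (A130077B15Rik, A730017L22Rik and Eif2ak2) 0.29 to 0.32. Among the 6 members with such values (not Lta, Csf1 and Il10, found in too few cells) the highest was Ifng with Tnf, at 0.15, and the receptor pair Il10ra and Il10rb came to 0.13.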

How the data were processed

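Smart-seq2 libraries of 376 single cells, 4 population wells and 4 no-cell wells were read from 1 deposited table. The authors deposited TMM-normalized FPKM values. Bowtie, RSEM and mm10 are named per the submitters' processing notes, without versions or settings. RSEM shares out reads that match several genes, and the files hold no read counts, so no count test was used. Cells with at least 1000 genes at 1 FPKM or more were kept. Means are of log2(FPKM + 1), a scale that understates changes of low genes and carries the share of cells with detection. With 1 plate per genotype and lineage, genotype was compared by shares (exact 95% intervals) and differences without a test, 1 log2 being called past the fold among genes detected in 10% or more of cells in 1 plate or both. KO4 and WT4 in the titles were taken as the source of each genotype's plates, an assumption, so that source and genotype coincide. The CD4 minus CD8 difference was fitted with limma 3.58.1 (R 4.3.3, trend) on plate means with the source as a term, 2-sided, Benjamini-Hochberg threshold 0.05. The step was tested on simulated plate means with 1 spread for all genes. Its pass mark was set on differences wider than those of the members called, so it does not speak to these calls. P-values measure a spread between these plates that is pooled over all genes, and not a gene's own spread or that between mice. Other steps used Python 3.11.15, pandas 2.3.3 and SciPy 1.17.1.

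Named genes were all 9 members, at most 4 genes of a list with the widest difference, and the 3 genes most like each member found in at least 10% of kept cells. The members and lists were chosen with earlier results of these data known. Alternatives were other pseudocounts (0.1 and 10), arithmetic means, cell filters of 500 and 2000 genes, detection at 10 and 100 FPKM, cells matched on detected genes within 10%, gene filters of 25% and none, population libraries, and leaving out plates, Foxp3-positive cells or cells with RNA of other cell types. The last rule counted Tyr, which nearly every cell had, so it was repeated without Tyr; that setting and detection at 100 FPKM were added after the data were seen. Proteins were not used here, nor were promoters of Il10, Il10ra and Il10rb.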

Additional observations from a re-analysis of the deposited data

Results flagged for a closer look

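Differences between the KO-labelled and WT plates had opposite signs in CD8 and CD4 cells for 4 of the genes, and the gap between the lineages was not tested. For Ifngr1 the gap was 1.33 log2 (1.32 in CD8 and -0.01 in CD4). For Lta it was 0.74 (0.54 in CD8 and -0.20 in CD4). For Il10 it was -0.60 (-0.40 in CD8, where the KO-labelled plate was at 0, and 0.20 in CD4), and for Il10rb -0.66 (-0.63 in CD8 and 0.02 in CD4). A signal outside the compared wells was Ifngr1 at 989.35 FPKM in the no-cell well of the CD4 WT plate, in a library of 26 detected genes.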

How the results depend on the processing

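The genotype differences have 1 plate on each side, so no setting tests them. Of 8 members measured in CD8 cells 2 passed 1 log2 (11.3% of all genes). The count was 5 of 8 with arithmetic means (20.3% of all genes), 4 of 9 without cells holding RNA of other cell types (29.6%), 1 of 8 with cells of at least 2000 genes (15.5%) and 1 of 7 with cells matched on detected genes (8.80%). Il10ra was past 1 log2 in each setting run, at -1.18 (population libraries) to -3.56 (pseudocount 0.1), whereas Ifngr1 dropped to 0.20 with cells of at least 2000 genes. In CD4 cells the count was 0 of 7 (5.04% of all genes), and 2 of 9 without cells holding RNA of other cell types (Ifng and Tnf, 1.20 and 1.25; 14.8% of all genes). It was 1 with arithmetic means (19.6%), population libraries (26.4%), Tyr not counted (9.32%; Tnf each time) or Foxp3-positive cells alone (Il10ra; 15.8%). Co-detection above independence held for 6 or 7 of the 10 ligand pairs under every setting run.

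For CD4 against CD8, limma with the source (KO4 or WT4) as a replicate block called 2 members and 7.44% of all genes. It called 0 members with no replicate block (0.831% of genes), no trend (2.14%), pseudocount 10 (0.225%), cells of at least 2000 genes (0.122%), genes in 25% of cells (3.44%), without cells holding RNA of other cell types (0.199%; 1.51% with Tyr not counted) and without Foxp3-positive CD4 cells (3.10%). With no gene filter and in the population libraries it called 0 members and 0 genes, with 1404 and 1066 genes and 3 members each at an unadjusted p under 0.05. Leaving out 1 plate, without the block since too few plates remain, gave 3 members and 13.7% of genes without CD8 KO, 1 and 1.69% without CD8 WT, 0 and 0.32% without CD4 KO, and 1 and 0.783% without CD4 WT; the lone plate of a lineage is assumed to vary like the others. The cause of these shifts was not tested. The small number of cells with a cytokine and the single plate on each side both limit these genes.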

Other observations

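Other cytokine genes of T cells were mostly out of reach: of 16 listed, 4 passed the filter in each lineage. Ltb, which encodes the membrane partner of lymphotoxin-alpha, was abundant, at 7.28 log2 in KO-labelled and 6.45 in WT CD8 cells and 7.48 in KO-labelled and 8.11 in WT CD4 cells. Its differences (0.83 and -0.63) had the signs of those of Lta (0.54 and -0.20), which did not pass the filter in CD4. In the population libraries the signs were alike in CD8 (Ltb 0.61, Lta 2.16) and opposite in CD4 (Ltb -0.56, Lta 5.34). Il16 was lower by 1 log2 or more in KO-labelled CD8 cells (-1.24) and stood at -0.80 in CD4 cells. Fasl, the death ligand, stood at -0.52 and -0.33. Tnfsf14 (LIGHT) differed by -0.14 and 0.23 in the cells, and by 2.11 and 4.66 in the population libraries, where Tnf and Lta were also higher under the KO label.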
